A study of Mus musculus with 4 samples.

Results

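JunB, BATF, and IRF4 binding at transforming growth factor-β (TGF-β) receptor and SMAD loci was examined in 4 ChIP-seq peak lists of activated regulatory T (Treg) cells. The loci were those of 8 genes, Tgfbr1, Tgfbr2, Smad2, Smad3, Smad4, Smad7, Ski, and Skil, among the 22380 coding genes that GENCODE annotates on the mouse genome assembly mm9. A peak was assigned to a gene when its centre lay within 50 kb of any annotated transcription start site (TSS) of that gene. In all, 156 of 103355 listed peaks were assigned in this way. They comprised 38 of 29659 JunB peaks, 25 of 13570 BATF peaks, and 50 of 31093 IRF4 peaks of Junb-sufficient cells, and 43 of 29033 IRF4 peaks of Junb-deficient cells.

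In ChIP-seq, an antibody pulls down a protein with the DNA it is bound to, the DNA is sequenced, and a peak is a position where the reads pile up above the local background. The cells were Treg cells of C57BL/6 mice, activated for 60 h with anti-CD3 and anti-CD28 antibodies and IL-2, with 1 library per condition. The antibodies were against JunB, BATF, or IRF4 for Junb-sufficient cells and against IRF4 for Junb-deficient cells. The labels name the genotypes Foxp3cre JUNB+/+ and Foxp3cre JUNBFl/Fl, with Cre recombinase driven by a Treg-specific promoter, whereas the methods of the study describe CD4+CD25+ splenic cells of Junb fl/fl mice and of Cd4 Cre Junb fl/fl mice, in which Cre acts in T cells from the thymus onward. Which Cre line the libraries came from could not be settled from the lists. The labels give neither the age of the mice nor whether mice were pooled. In the antibody field of the labels, BATF and IRF4 of the Junb-sufficient libraries are swapped with respect to the titles, and the titles were followed. The lists hold positions and no expression, so that the Treg label could not be checked against marker genes and the comparison with other genes could not be restricted to genes active in these cells.

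TGF-β signals through a type II receptor (Tgfbr2) that phosphorylates a type I receptor (Tgfbr1), which in turn phosphorylates the receptor-regulated SMAD proteins Smad2 and Smad3. These bind the common partner Smad4 and enter the nucleus, where Ski and SnoN (encoded by Skil) act as corepressors. Smad7 is an inhibitory SMAD that is induced by the pathway and acts back on the receptor. In T cells this pathway is known for its part in Foxp3 induction and in peripheral tolerance. JunB and BATF are AP-1 proteins, which bind as dimers to the AP-1 consensus TGACTCA, and BATF-containing dimers can bind together with IRF4 at AP-1-IRF composite elements (AICE).

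The mm9 reference sequence, plus strand, is given for the JunB peak that overlapped both BATF and IRF4 and stood highest in the JunB list at Tgfbr1, Tgfbr2, Smad3, Ski, and Skil, as examples of the shared sites. Those of the other 3 genes are not shown. Capitals mark matches to TGANTCA on either strand.
Tgfbr1 (chr4:47316390-47316540): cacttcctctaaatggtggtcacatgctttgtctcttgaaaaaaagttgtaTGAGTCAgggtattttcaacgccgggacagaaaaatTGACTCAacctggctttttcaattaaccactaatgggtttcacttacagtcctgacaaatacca
Tgfbr2 (chr9:116046074-116046224): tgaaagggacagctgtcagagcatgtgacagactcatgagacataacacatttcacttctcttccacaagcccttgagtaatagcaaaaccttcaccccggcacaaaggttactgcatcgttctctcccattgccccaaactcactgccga
Smad3 (chr9:63586294-63586444): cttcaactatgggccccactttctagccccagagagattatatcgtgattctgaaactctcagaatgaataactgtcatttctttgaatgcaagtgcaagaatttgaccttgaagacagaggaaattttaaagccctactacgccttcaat
Ski (chr4:154617160-154617310): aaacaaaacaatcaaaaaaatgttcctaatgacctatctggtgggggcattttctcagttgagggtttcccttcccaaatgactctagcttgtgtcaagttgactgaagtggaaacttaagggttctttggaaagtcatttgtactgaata
Skil (chr3:31027283-31027433): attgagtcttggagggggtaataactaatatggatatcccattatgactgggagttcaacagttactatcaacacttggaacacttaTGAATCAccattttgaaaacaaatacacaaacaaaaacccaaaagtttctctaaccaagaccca

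The sequences of the 3 JunB peaks that lay under an IRF4 peak without a counterpart in Junb-deficient cells are given next in the same way.
Tgfbr1 (chr4:47335335-47335485): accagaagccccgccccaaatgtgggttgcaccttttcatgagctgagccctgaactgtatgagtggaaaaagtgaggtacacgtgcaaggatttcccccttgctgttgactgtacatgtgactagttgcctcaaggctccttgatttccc
Smad3 (chr9:63525991-63526141): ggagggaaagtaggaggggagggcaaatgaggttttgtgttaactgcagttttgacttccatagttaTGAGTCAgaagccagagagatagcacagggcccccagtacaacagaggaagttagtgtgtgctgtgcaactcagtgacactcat
Skil (chr3:31005613-31005763): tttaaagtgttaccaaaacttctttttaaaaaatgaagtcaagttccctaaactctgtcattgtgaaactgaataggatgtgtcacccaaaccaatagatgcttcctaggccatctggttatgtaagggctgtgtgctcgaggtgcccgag

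Stretches of other peaks at Smad3, Skil, and Tgfbr1 that held a motif match, with 20 bp on either side, show how the matches are set in these loci. They were chosen after the matches were seen. In the first 6, capitals mark TGACTCA or its reverse complement inside a JunB peak. In the 3 lines that follow, capitals mark an AICE match in an IRF4 and BATF peak at Smad3 and tandem IRF matches (GAAANNGAAA) in IRF4 peaks at Tgfbr1 and Smad3.
Smad3 (chr9:63522610-63522656): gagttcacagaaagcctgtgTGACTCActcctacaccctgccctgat
Smad3 (chr9:63554374-63554420): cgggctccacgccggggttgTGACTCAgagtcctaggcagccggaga
Smad3 (chr9:63569695-63569741): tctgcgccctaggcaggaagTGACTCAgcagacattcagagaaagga
Smad3 (chr9:63593779-63593825): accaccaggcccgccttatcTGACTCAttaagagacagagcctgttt
Smad3 (chr9:63595666-63595712): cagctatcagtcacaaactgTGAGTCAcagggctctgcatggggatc
Skil (chr3:30960287-30960333): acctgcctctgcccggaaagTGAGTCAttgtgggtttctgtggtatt
Smad3 (chr9:63601377-63601427): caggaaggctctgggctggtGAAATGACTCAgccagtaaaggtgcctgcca
Tgfbr1 (chr4:47327047-47327096): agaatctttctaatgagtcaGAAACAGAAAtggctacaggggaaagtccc
Smad3 (chr9:63633544-63633593): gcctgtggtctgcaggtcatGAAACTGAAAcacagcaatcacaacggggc

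Because the score given with each peak is 1 throughout, a peak is described here by its place in its library's list, counted from 1 at the top. The files do not say how the lists are ordered, but peaks listed in both genotypes were more frequent towards the top, as given with the genotypes. Consecutive places sometimes fell on peaks near each other, such as JunB places 5224 and 5225 at Smad3 and 21166 and 21167 at Tgfbr1. Parts of the lists may thus run in order of position, and small differences in place should not be read as differences in strength. Every one of the 8 loci held at least 1 peak of each of the 4 libraries. Among all coding genes, 64.8% held a JunB peak, 48.9% a BATF peak, and 74% and 73.3% an IRF4 peak in Junb-sufficient and Junb-deficient cells. The number of JunB peaks was highest at Tgfbr1, with 10, followed by 7 each at Smad3 and Skil, 5 at Tgfbr2, 3 each at Smad2 and Smad4, 2 at Smad7, and 1 at Ski. IRF4 peaks of Junb-sufficient cells numbered 12 at Smad3, 7 each at Tgfbr1 and Tgfbr2, 6 each at Smad4, Ski, and Skil, 4 at Smad7, and 2 at Smad2. BATF peaks were fewer, from 2 to 7 per gene, with 7 at Smad3. The median over the 8 genes was 4 JunB, 2.5 BATF, and 6 IRF4 peaks, compared with medians of 1, 0, and 2 over all coding genes. These counts rest on windows of unequal length, which ran from 100 kb at Tgfbr2 to 191.4 kb at Smad3. Per 100 kb, the median JunB count was 3.07 at the 8 genes and 1 over all genes, and the median IRF4 count was 4.87 and 2. At Tgfbr1 the JunB density of 7.52 peaks per 100 kb was above that of 98.5% of coding genes, whereas the 0.745 at Ski was above that of 37.8%. The Tgfbr1 count includes JunB peaks 30.7 to 49.6 kb upstream, for which the nearest coding gene was the neighbouring Col15a1. Those 40.8 to 49.6 kb upstream lay inside Col15a1.

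**Figure D1:**
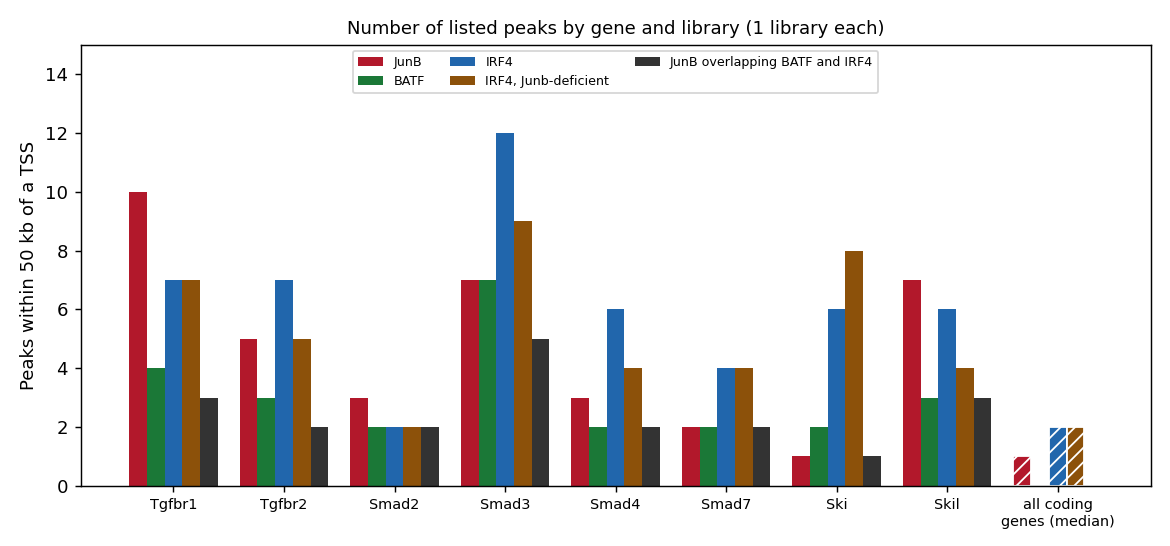
Number of listed peaks (vertical axis) within 50 kb of a TSS for each of the 8 genes, with hatched bars for the median over all coding genes; colours stand for the 4 libraries and dark grey for JunB peaks that overlap both BATF and IRF4. Tgfbr1 has the most JunB peaks (10), Smad3 the most IRF4 peaks (12), and every gene has at least 1 dark grey bar unit.

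JunB, BATF, and IRF4 came together within 50 kb of a TSS of each of the 8 genes. Of the 38 JunB peaks, 20 (52.6%, exact binomial 95% interval 35.8 to 69.0%) shared at least 1 bp with a BATF peak and with an IRF4 peak. The share was 30.1% over the whole JunB list and 34.1% over JunB peaks within 50 kb of any coding TSS. Of the 38 peaks, 26 stood in the upper 50% of the JunB list, and over all JunB peaks at like places (the same of 10 equal parts of the list) the share was 38.8%, which lies inside the interval. All 8 genes had at least 1 such peak, as did 35.1% of coding genes. A member was the nearest coding gene for 15 of the 20, and not for the only such peak at Ski. Within these 20 sites the JunB centre lay a median of 22.5 bp from the BATF centre and 17 bp from the IRF4 centre, compared with 24 bp each over the whole list. Of the 20 peaks, 11 lay in the gene itself, 8 between genes, and 1 in another gene. A single one lay within 1 kb of a TSS, an internal TSS of Smad4, and 11 lay beyond 10 kb. The JunB peaks that overlapped neither factor numbered 14 (36.8%, 21.8 to 54%), compared with 54.3% of all, 47.8% near any coding TSS, and 45.8% at like places, and none was found at Smad7 or Ski. Of the 25 BATF peaks, 21 (84%, 63.9 to 95.5%) lay over a JunB peak, compared with 70.7% of all BATF peaks and 77.3% at like places.

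**Figure D2:**
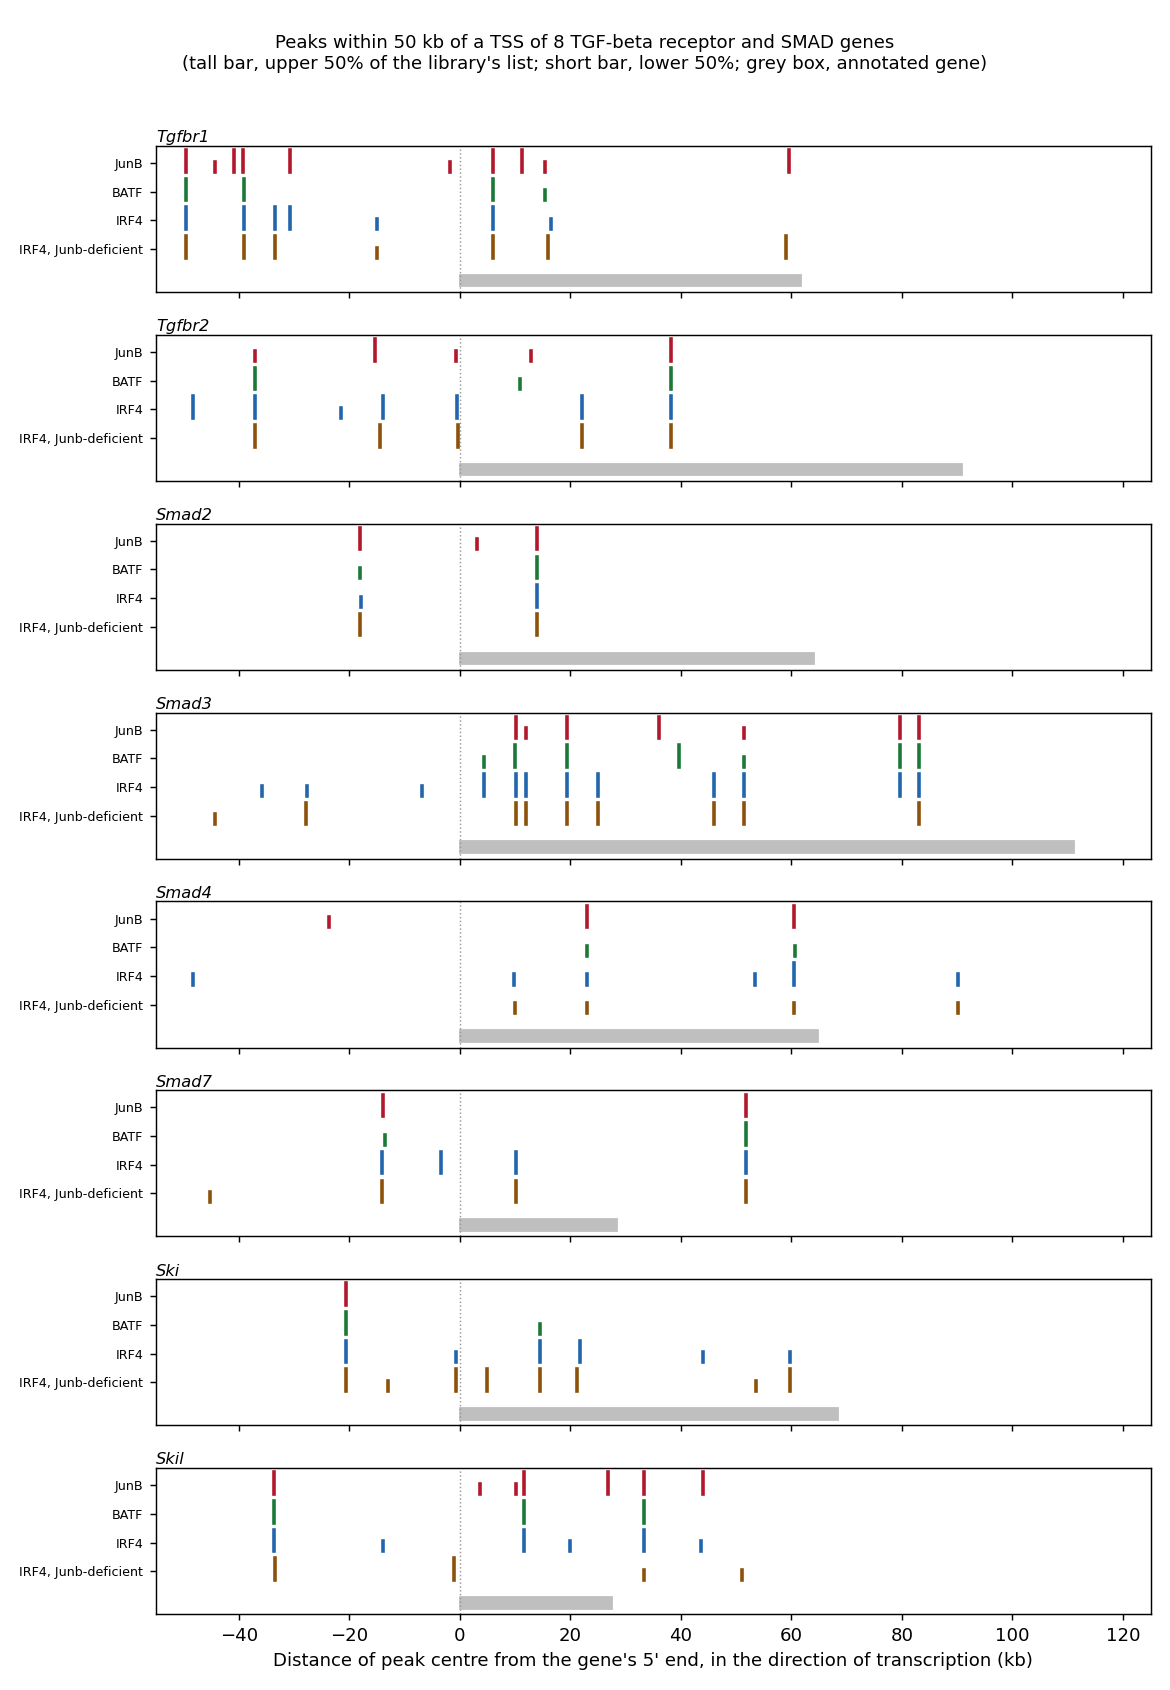
Position of each peak centre at the 8 genes, in kb from the 5′ end of the gene in the direction of transcription, with 1 row per library; tall bars stand in the upper 50% of the library's list, short bars in the lower 50%, and the grey box is the annotated gene. Columns of 4 bars, such as those at 19.4 kb in Smad3 and 14 kb in Smad2, are sites shared by all libraries.

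The type I receptor gene Tgfbr1 (plus strand of chromosome 4, 47366094 to 47427803) had 3 JunB peaks shared with BATF and IRF4. The highest, at place 912 of the JunB list, lay 49.6 kb upstream of the nearest Tgfbr1 TSS, at the edge of the window and in an intron of the neighbouring collagen gene Col15a1, so that its assignment to Tgfbr1 rests on the distance rule. BATF stood at place 3082 of its list there and IRF4 at place 1608, and IRF4 was listed in Junb-deficient cells at place 3735. The second lay 39.2 kb upstream, between genes and nearest to Col15a1, with JunB at place 8096, BATF at 2765, and IRF4 at 1836 and, in Junb-deficient cells, 3788. The third lay in a Tgfbr1 intron 5.68 kb downstream of a TSS, with JunB at place 1281, BATF at 1256, and IRF4 at 7297 in Junb-sufficient and 9181 in Junb-deficient cells. All 3 were therefore listed in both genotypes, each lower in the Junb-deficient list. A further intronic JunB peak, 15.1 kb downstream, overlapped BATF but not IRF4, whose peak centres lay 16.1 kb (Junb-sufficient) and 15.6 kb (Junb-deficient) downstream and whose peaks shared only their ends, with centres 529 bp apart. The remaining JunB peak with IRF4, 30.7 kb upstream and without BATF, is described with the genotypes. In exonic, non-coding sequence near the 3′ end of the gene, an IRF4 peak of Junb-deficient cells alone (place 7105) and a JunB peak (place 14034) lay side by side without overlap.

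The type II receptor gene Tgfbr2 (minus strand of chromosome 9, 115993415 to 116084383) had 2 sites with all 3 factors. In an intron 38.2 kb downstream of the TSS, JunB stood at place 6112, BATF at 2777, and IRF4 at 2869 in Junb-sufficient and 3170 in Junb-deficient cells. At 37.1 kb upstream, JunB stood lower, at place 20018, BATF at 6238, and IRF4 at 6896 in Junb-sufficient cells. The IRF4 peak at this upstream site stood higher in Junb-deficient cells, at place 1462. Close to the promoter, with centres 0.328 to 0.655 kb upstream of the TSS, IRF4 was listed in both genotypes (places 12324 and 9384) with a low JunB peak (place 25073) and no BATF peak. IRF4 peaks 21.4 and 48.2 kb upstream were listed in Junb-sufficient cells alone, and neither overlapped JunB or BATF.

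Smad2 (plus strand of chromosome 18, 76401234 to 76465385), which encodes a receptor-regulated SMAD, had few peaks, and its intronic site stood near the top of the lists. At 14 kb downstream of the 5′ end of the gene and 5.52 kb upstream of an internal TSS, JunB was listed at place 204 of 29659, the best place of any JunB peak at the 8 loci. BATF stood at place 659 there, also the best BATF place at these loci, and IRF4 at place 1126 in Junb-sufficient and 3277 in Junb-deficient cells. A further site 18 kb upstream had all 3 factors at middle to low places, with JunB at 13700, BATF at 10356, and IRF4 at 17314 and, in Junb-deficient cells, 14081. Both IRF4 peaks at Smad2 were thus kept in Junb-deficient cells, and no IRF4 peak was listed in Junb-deficient cells alone.

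Smad3 (minus strand of chromosome 9, 63494574 to 63605801), which encodes the other receptor-regulated SMAD, had the most sites. Of its 7 JunB peaks, 5 overlapped both BATF and IRF4, and all 7 lay in Smad3 introns. The intronic site 19.4 kb from the 5′ end of the gene, 4.7 kb downstream of an internal TSS, held the highest IRF4 peaks of the 8 loci in both genotypes, at place 155 of 31093 in Junb-sufficient and place 92 of 29033 in Junb-deficient cells. JunB stood there at place 822 and BATF at place 760. At 10.1 kb from the 5′ end, JunB stood at place 1549, BATF at 2981, and IRF4 at 3500, and IRF4 stood at 8849 in Junb-deficient cells. At 83.1 kb, JunB stood at place 5224, BATF at 5151, and IRF4 at 3305, and IRF4 stood at place 12205 in Junb-deficient cells. At 51.4 kb, JunB was low in its list (place 21709), as was BATF (place 8909), while IRF4 stood at 6628 and 7503. The site at 79.7 kb had no IRF4 peak in Junb-deficient cells. Smad3 also had the only IRF4 peak at the 8 loci that covered an annotated TSS, an internal one 46 kb from the 5′ end, listed in both genotypes (places 5602 and 6006) without JunB or BATF.

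Smad4 (minus strand of chromosome 18, 73798663 to 73863434), which encodes the common SMAD, had 2 intronic sites with all 3 factors, and the best place of each factor was lower than at Smad2 and Smad3. At 23 kb from the 5′ end, JunB stood at place 3703, BATF at 9881, and IRF4 at 16995 and, in Junb-deficient cells, 21335. At 60.5 kb, 0.698 kb upstream of an internal TSS, JunB stood at place 9860, BATF at 9445, and IRF4 at 10808 and, in Junb-deficient cells, 19636. The best IRF4 place at Smad4, 10808, compares with 155 at Smad3 and 1126 at Smad2.

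Smad7 (plus strand of chromosome 18, 75527183 to 75555589), the inhibitory SMAD gene, had 2 JunB peaks, both shared with BATF and IRF4, and both outside the gene. The downstream site, 51.8 kb from the 5′ end and past the 3′ end, stood high in all 4 lists, with JunB at place 1850, BATF at 2803, and IRF4 at 2602 and, in Junb-deficient cells, 2519. The upstream site, near 14 kb, had JunB at place 12366, BATF at 8796, and IRF4 at 7443 and 11328. In the Smad7 intron, IRF4 was listed without JunB or BATF, at place 6235 in Junb-sufficient and 2581 in Junb-deficient cells.

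The corepressor genes had 6 IRF4 peaks each but 1 and 7 JunB peaks. Ski (minus strand of chromosome 4, 154528184 to 154596701) had a single JunB peak, 20.5 kb upstream at place 10084, which overlapped BATF (place 3712) and IRF4 (place 6959, and 4541 in Junb-deficient cells). Its other 5 IRF4 peaks of Junb-sufficient cells had no JunB peak. The IRF4 peak 0.664 kb upstream of a Ski TSS was listed in both genotypes, at places 16165 and 10699. Skil (plus strand of chromosome 3, 30993980 to 31021499) had 7 JunB peaks. At 33.6 kb upstream, IRF4 stood at place 692 in Junb-sufficient and 487 in Junb-deficient cells, with BATF at 2154 and JunB at 8046. At 31.2 kb downstream of a TSS, past the end of the gene, JunB stood at place 4440, BATF at 4739, and IRF4 at 9543 and, in Junb-deficient cells, 23393. The third shared site, in a Skil intron, had no IRF4 peak in Junb-deficient cells. Distance does not make these genes the targets of the sites. At the Ski site with JunB, the nearest coding gene was 2610002J02Rik. At the shared Skil sites outside the gene, it was Prkci for the upstream site and Cldn11 for the downstream site. At the shared Tgfbr1 sites 49.6 and 39.2 kb upstream, it was Col15a1. A member gene was the nearest coding gene for 29 of the 38 JunB peaks and 41 of the 50 IRF4 peaks.

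The IRF4 list of Junb-sufficient cells was set against that of Junb-deficient cells to see which IRF4 peaks at these loci were listed in both. Whether IRF4 needs JunB there cannot be decided from listed positions of 1 library per genotype. Most IRF4 peaks at the 8 genes were listed in both genotypes. Of the 50 peaks, 35 overlapped a peak of Junb-deficient cells and 15 (30%, 17.9 to 44.6%) had none, compared with 35.0% of the whole list, 34.3% near any coding TSS, and 29.2% of peaks at like places. The share without a counterpart was therefore close to that of peaks in general. Of the 23 IRF4 peaks over a JunB peak, 3 had no counterpart (13%, 2.78 to 33.6%, compared with 23.8% of all such peaks). Of the 27 with no JunB peak, 12 had none (44.4%, 25.5 to 64.7%, compared with 42.5%). For this split by JunB, shares at like places were not computed, so that it is not separated from place in the list. In the other direction, 8 of the 43 IRF4 peaks of Junb-deficient cells had no counterpart in Junb-sufficient cells (18.6%, 8.39 to 33.4%, compared with 30.4% of all and 22.6% at like places). A peak that is not listed is not a site without IRF4. It had only to miss the calling threshold or fail the caller's filter on the surrounding 10 kb. That filter removed 37.4% of putative IRF4 peaks in Junb-sufficient cells and 36.2% in Junb-deficient cells. Recorded depth was 21.1 M tags for Junb-deficient and 23.9 M for Junb-sufficient IRF4, at the same threshold of 19 tags. With 1 library per genotype, no test between genotypes was possible. Over the whole list, the share without a counterpart rose from 5.05% in the top 10% of its length to 67.9% in the bottom 10%. At the 8 loci it was 0 of 7 peaks in the top 10% and 1 of 2 in the bottom 10%, too few to follow along the list.

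**Figure D3:**
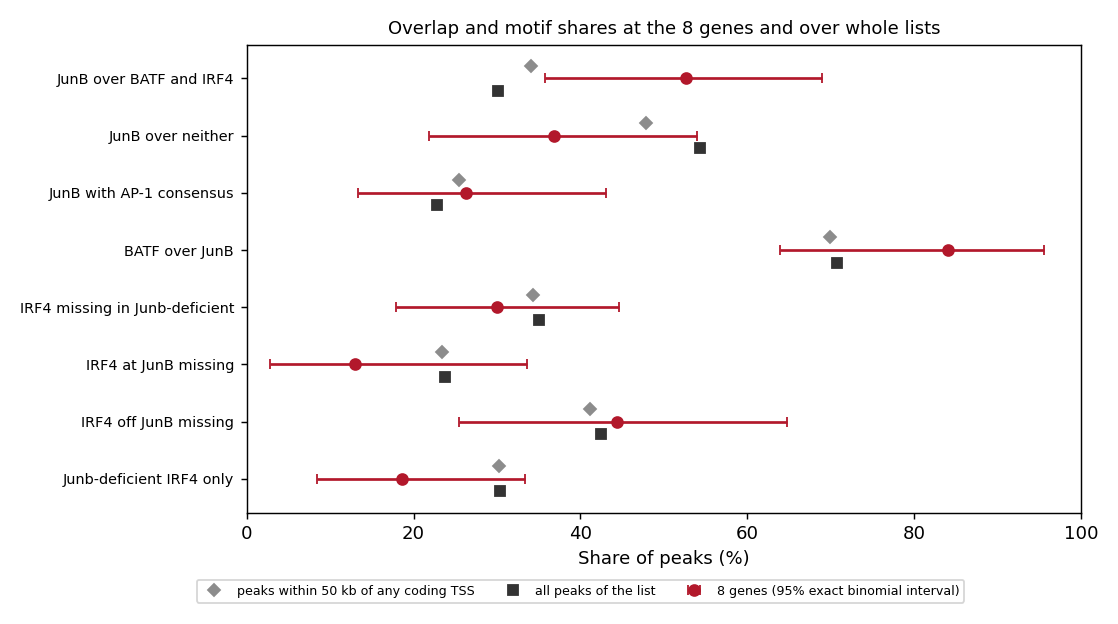
Share of peaks (%) at the 8 genes (circles, with exact binomial 95% intervals), among peaks within 50 kb of any coding TSS (diamonds), and in the whole list (squares), for 8 measures of overlap, motif, and listing between genotypes. The interval for JunB peaks over both BATF and IRF4 (35.8 to 69.0%) starts above both comparison values, 30.1 and 34.1%, while the intervals for IRF4 peaks without a Junb-deficient counterpart include theirs. The share of JunB peaks over both at like places in the list, 38.8%, is not drawn and lies inside the first interval.

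The 3 IRF4 peaks over JunB without a Junb-deficient counterpart lay at Tgfbr1, Smad3, and Skil, and 16.2% of all coding genes had at least 1 such peak. At Tgfbr1, 30.7 kb upstream and between genes, IRF4 stood at place 6610 (21.3% down its list) over a JunB peak at place 10057, without BATF, and the nearest Junb-deficient IRF4 peak lay 2143 bp away. The nearest coding gene there was Col15a1. At Smad3, in an intron 79.7 kb from the 5′ end, IRF4 stood at place 8711 (28%) over JunB at 5225 and BATF at 6480, and the nearest Junb-deficient peak lay 2824 bp away. At Skil, in an intron 9.48 kb downstream of a TSS, IRF4 stood at place 8671 (27.9%) over JunB at 6318 and BATF at 5210, and the nearest Junb-deficient peak lay 12207 bp away. All 3 thus stood in the third of 10 equal parts of the list, where 19.7% of all peaks had no counterpart. The other 12 peaks without a counterpart had no JunB peak, and stood from 35.6 to 91.2% down the list. These were 2 at Tgfbr2, 3 at Smad3, 2 at Smad4, 1 at Smad7, 1 at Ski, and 3 at Skil. The Smad3 peak 4.42 kb from the 5′ end was the only one of these 12 over a BATF peak (place 12950) and the only IRF4 peak of the 50 with an AICE match.

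The 8 IRF4 peaks listed in Junb-deficient cells alone lay at Ski (3), Skil (2), Tgfbr1, Smad3, and Smad7. The highest was at Skil, 1.12 kb upstream of the TSS, at place 1723 of 29033 (5.93% down the list), with the nearest Junb-sufficient IRF4 peak 12163 bp away. Among all peaks in the top 10% of the Junb-deficient list, 4.24% had no Junb-sufficient counterpart. The other 7 stood at places 7105 to 28909. At Ski they lay in introns 4.97 and 53.7 kb from the 5′ end (places 12378 and 20343) and 12.9 kb upstream (place 19795). Whether the caller's filter on the surrounding 10 kb left out a Junb-sufficient peak at any of these positions was not tested.

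Among the 35 IRF4 peaks listed in both genotypes, 17 stood lower in the Junb-deficient list, as a share of its length, and 18 stood higher. Of the 20 over JunB, 13 stood lower (65%, compared with 61.1% of all such peaks), with a median drop of 5.83 percentage points of the list, compared with 2.2 over all. Of the 15 without JunB, 4 stood lower (26.7%, compared with 42.7%), with a median of -10.9 points, that is, nearer the top, compared with -3.18 over all. Among these 15, a pair each at Tgfbr1, Tgfbr2, Smad4, and Ski had centres 529, 498, 153, and 357 bp apart. Each of these pairs stood higher in the Junb-deficient list. Over JunB, a pair each at Tgfbr2 and Smad3 had centres 124 and 107 bp apart. The medians were not recomputed with centres within 100 bp or at like places, so whether the contrast depends on either was not tested. Individual peaks moved further. At Skil, the IRF4 peak past the end of the gene dropped from 30.7 to 80.6% down the list, a drop that 2.23% of all kept IRF4 peaks matched or exceeded. At Smad4, the peak 60.5 kb from the 5′ end dropped from 34.8 to 67.6% (6.88% of all dropped as far), and at Smad3 the peak at 83.1 kb dropped from 10.6 to 42.0% (7.59%). All 3 lay over both JunB and BATF. In the opposite direction, the Smad3 peak 27.7 kb upstream moved from 96.9 to 26.7%, a rise that 0.0742% of all kept peaks matched, and a Ski intronic peak moved from 64.3 to 24.5% (2.46%). Neither lay over JunB or BATF. The named peaks were picked as the largest shifts, and the shares beside them are over all kept peaks, wherever these started. A peak near the top cannot rise as far, nor one near the bottom drop as far, so the shares do not measure how unusual a shift was for its starting place. A peak's place depends on all other peaks of its list, and these shifts come from 1 library of each genotype. Shifts of a few points, which the counts of lower and higher peaks include, may come from stretches of the list ordered by position.

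**Figure D4:**
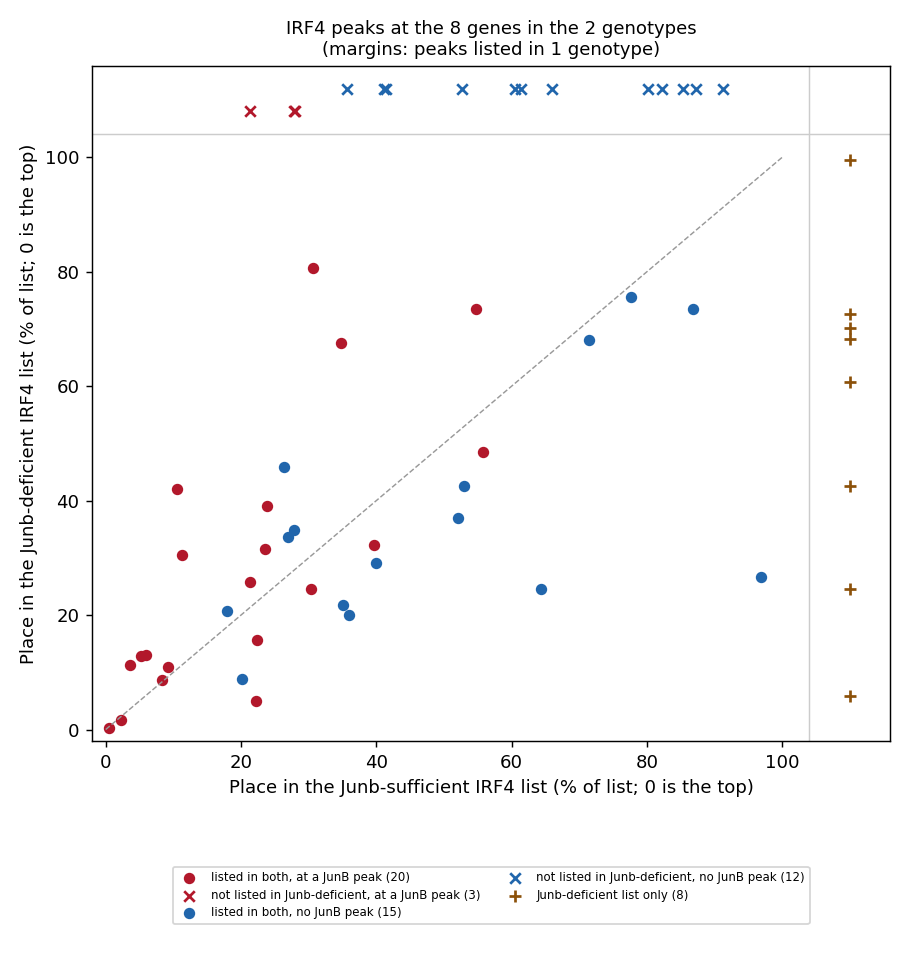
Place of each IRF4 peak at the 8 genes in the Junb-sufficient list (horizontal axis) and the Junb-deficient list (vertical axis), as % of the list with 0 at the top; red is over a JunB peak, blue is not, crosses in the upper margin are not listed in Junb-deficient cells, and plus signs in the right margin are listed there alone. The 3 red crosses lie between 21.3 and 28% of the Junb-sufficient list, the red point at 30.7 and 80.6% is the Skil peak, and the blue point at 96.9 and 26.7% is the Smad3 peak.

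AP-1 matches were found in JunB peaks of 4 of the 8 genes, at a share close to that of the whole JunB list. TGACTCA, or its reverse complement TGAGTCA, was found in 10 of the 38 JunB peaks (26.3%, 13.4 to 43.1%), compared with 22.8% of all JunB peaks and 26.7% at like places. These lay at Tgfbr1, Smad2, Smad3, and Skil, with 6 of the 10 at Smad3. Among JunB peaks over both BATF and IRF4, 7 of 20 (35%) held a match, compared with 39.6% of all such peaks, and among those over neither, 2 of 14 (14.3%), compared with 11.2%. With any base in the middle (TGANTCA), 12 of 38 held a match (31.6%, compared with 28.5%). The highest shared JunB peaks of Tgfbr2, Smad3, and Ski printed above held no TGANTCA, that of Tgfbr1 held TGAGTCA and TGACTCA, and that of Skil held TGAATCA. Of the 3 JunB peaks under an IRF4 peak without a Junb-deficient counterpart, that at Smad3 held TGAGTCA, 5 bp from its centre. AICE, searched on both strands as GAAA directly before TGANTAA or TGANTCA, or TTTC and any 4 bases before either, was found in none of the 38 JunB peaks (upper end of the interval 9.25%), compared with 3.42% of all JunB peaks. Within 100 bp of the IRF4 centres it was found in 1 of 50 (2%, compared with 4.03% of all), the Smad3 match printed above. GAAANNGAAA was found in 4 of 50 IRF4 peaks (8%, compared with 9.49%). The SMAD-binding palindrome GTCTAGAC was found in none of the 38 JunB peaks, compared with 0.131% of all. An AICE match contains a TGANTCA or TGANTAA, so that matches to AICE and to AP-1 can overlap. A match is not evidence of binding at those bases, and its absence says only that these letters are not in the window.

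Other genes of the TGF-β pathway were counted in the same way. The list held 30 genes (ligands, other receptors, latent TGF-β activation, other SMADs, ubiquitin ligases, and cofactors). JunB peaks were found at 23 of the 30, BATF at 20, IRF4 at 30 in Junb-sufficient and at 29 in Junb-deficient cells, and a JunB peak over both BATF and IRF4 at 17. Over all coding genes, 64.8% had a JunB peak, 48.9% a BATF peak, 74% and 73.3% an IRF4 peak in the 2 genotypes, and 35.1% a JunB peak over both. The median was 2 JunB peaks and 3 IRF4 peaks per gene, below the 4 and 6 of the receptor and SMAD genes above. These medians are of counts not scaled to window length, which reached 395.1 kb at Ltbp1. Of their 88 JunB peaks, 28 (31.8%, compared with 30.1% of the whole list) overlapped both BATF and IRF4, and of their 102 IRF4 peaks, 40 (39.2%, compared with 35.0%) had no Junb-deficient counterpart. The highest JunB counts were at Itgb8 (12) and Itgav (11), which encode the subunits of an integrin that releases active TGF-β from its latent form. At Itgb8 the best JunB place was 152 and the best BATF place 52, while 2 of its 12 JunB peaks overlapped both BATF and IRF4, compared with 6 of 11 at Itgav. Acvr2a came next with 9 JunB peaks, 1 of them over both and 6 over neither. Tgfbr3, which encodes the coreceptor betaglycan, had 8 JunB peaks, 4 of them over both. No JunB peak was listed at Lrrc32, which encodes the receptor GARP that holds latent TGF-β on Treg cells, nor at Ltbp3, Acvr2b, Smad6, Smurf1, Bambi, or Foxh1.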

How the data were processed

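Peak lists of 4 ChIP-seq libraries of mouse Treg cells were analysed. For each library, the authors used Bowtie2 to place reads on mm9 and HOMER to call peaks (4.8 in the submitters' notes), at a false discovery rate of 0.001 and 4-fold above the surrounding 10 kb. The deposited score is 1 for every peak, so place in the list was used. The file headers do not state that the lists are ordered by strength. Recorded depth was 21.1 to 27.4 M tags, with tags per peak not given. The threshold was 10 tags for JunB, in peaks of 151 bp, and 19 for the others, in peaks of 605 or 613 bp. The filter on the surrounding 10 kb removed 5.25% of putative peaks for JunB and 36.2 to 37.4% for the others. Positions were counted from 1. Overlaps of 1 bp, distances, and motif matches were computed in Python 3.11.15 with NumPy 2.4.6, SciPy 1.17.1, and pysam 0.24.0, and tested on simulated data. Exact binomial (Clopper-Pearson) intervals cover counting error over peaks only. All 8 genes were named by rule. The genes, lists, and rules were chosen with earlier results of these data known.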

Additional observations from a re-analysis of the deposited data

How the results depend on the processing

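With 1 library per condition, no replicate could be left out. No paired analysis was possible because each condition has 1 library and no result comes from a test. Of 38 alternatives over 5 shares, 35 stayed inside the 95% interval of the reported value. With the first 13000 peaks of every list, the share of JunB peaks over both BATF and IRF4 was 69.6%. With BATF and IRF4 exchanged as in the antibody field, 46% of peaks named BATF lay over JunB and 53.5% of Junb-deficient IRF4 peaks had no counterpart. These settings shorten the lists or compare another list, and why the shares moved was not tested. The interval for JunB peaks over both reached below the 34.1% found near any coding TSS in 4 alternatives, namely within 25 kb (50%, 29.9 to 70.1%) or 100 kb (44%, 30 to 58.7%) of a TSS, with a member as the nearest coding gene (51.7%, 32.5 to 70.6%), and with centres within 100 bp (44.7%, 28.6 to 61.7%), and the 34.1% was not recomputed for these. With centres within 100 bp, the share of Junb-sufficient IRF4 peaks without a counterpart was 42% (28.2 to 56.8%), compared with 30%. That of Junb-deficient IRF4 peaks was 32.6%, compared with 18.6%. How many peaks count as listed in both genotypes thus depends on the overlap rule. JunB peaks were called at a lower tag threshold and narrower than the others, and widening all peaks to the IRF4 width left the 4 overlap shares unchanged.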

Other observations

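Just outside the 50 kb limit, further peaks lay near the same genes. Upstream of Smad4, 58.1 to 58.2 kb from its TSS, a site was listed in all 4 libraries, with JunB at place 4838, BATF at 3870, and IRF4 at 4112 in Junb-sufficient and 5314 in Junb-deficient cells, higher in the BATF and IRF4 lists than any Smad4 peak inside the limit. Upstream of Skil, 56.1 kb from the TSS, JunB (place 10019) overlapped IRF4 (place 6460), and IRF4 stood at place 21481 in Junb-deficient cells. The nearest peak outside was an IRF4 peak of Junb-sufficient cells 51.4 kb from a Smad7 TSS (place 14173). The farthest inside were those at Tgfbr1, 49.6 kb upstream.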
